A study of Homo sapiens with 12 samples.

Results

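The miR-181 family was followed through TGF-β-induced epithelial-mesenchymal transition (EMT) in A549 cells, strand by strand. Its 7 members were taken by name from the deposited table of read counts, which lists 2588 mature miRNAs. They comprised 4 guide strands, hsa-miR-181a-5p, hsa-miR-181b-5p, hsa-miR-181c-5p, and hsa-miR-181d-5p, and 3 strands from the opposite arm, hsa-miR-181a-3p, hsa-miR-181a-2-3p, and hsa-miR-181c-3p, named below without the species prefix. Where a name was listed under several hairpins, the entry with the highest total was used. A549 is an established human lung adenocarcinoma line, used here without any genetic change, and TGF-β is a cytokine that induces EMT in it. Cells were collected before TGF-β (0 h) and after 24 and 96 h of exposure to it (the study's methods seed cells in serum-free medium before the cytokine is added), and 2 small RNA libraries were sequenced for each time. No untreated cultures were sampled at 24 or 96 h, so the effect of TGF-β and that of time in culture cannot be told apart. Nothing in the labels says that the 2 libraries of a time point came from separate cultures, so p-values measure the spread between libraries, which may be technical.

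A miRNA hairpin is cut into a duplex of 2 strands. One strand, the guide, is usually loaded into an Argonaute protein and finds its target mRNAs through its seed, bases 2 to 8, while the other strand is mostly degraded. The miR-181 guides are abundant in lymphocytes, where miR-181a tunes T cell receptor signalling, and they are also present in many epithelial cancers. For miR-181a-5p and miR-181b-5p, several hairpins give the same guide, so only the strand from the opposite arm can tell those hairpins apart. The guides miR-181c-5p and miR-181d-5p each come from a single hairpin.

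The mature sequences, taken from RefSeq (GRCh38.p14) and written 5′ to 3′ with the seed in capitals, show which members share a seed and which can be told apart by sequence.
miR-181a-5p: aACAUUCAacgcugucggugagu
miR-181b-5p: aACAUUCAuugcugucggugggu
miR-181c-5p: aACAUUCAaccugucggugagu
miR-181d-5p: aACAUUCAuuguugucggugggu
miR-181a-3p: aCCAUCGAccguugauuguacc
miR-181a-2-3p: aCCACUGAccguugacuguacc
miR-181c-3p: aACCAUCGaccguugaguggac

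The 4 guides shared the seed ACAUUCA. With positions counted from 1 at the 5′ end of the strand that a change starts from, whose base is written first, the changes from miR-181a-5p to miR-181b-5p were A9U, C10U, and A21G. From miR-181b-5p to miR-181d-5p the only change was C12U, and miR-181c-5p lacked the base at position 11 of miR-181a-5p. The opposite-arm strands of the 2 miR-181a hairpins did not share a seed: from miR-181a-3p to miR-181a-2-3p the differences were U5C, C6U, and U16C, and the first 2 of these lie in the seed. miR-181c-3p started 1 base earlier than miR-181a-3p, and from miR-181a-3p to miR-181c-3p the changes, counted on miR-181a-3p, were U16G and U19G over the 21 bases in which they overlapped, again giving another seed. miR-4262 was the only other miRNA in RefSeq's table with the guide seed, and it had 0 counts in every library. The mapping settings of the authors are not given in the sources used here, so reads of miR-181b-5p and miR-181d-5p, which are 1 base apart, may have been exchanged in part.

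The hairpins that give the 2 opposite-arm strands of miR-181a, each with both mature strands in capitals, show that an identical guide is joined to different partners.
MIR181A1: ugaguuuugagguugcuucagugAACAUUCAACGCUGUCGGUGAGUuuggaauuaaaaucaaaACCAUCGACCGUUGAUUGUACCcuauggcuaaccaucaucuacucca
MIR181A2: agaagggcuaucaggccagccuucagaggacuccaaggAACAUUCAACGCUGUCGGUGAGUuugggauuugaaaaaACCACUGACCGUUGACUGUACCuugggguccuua

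On GRCh37, the build the submitters name as hg19, the family comes from 3 clusters of 2 hairpins each. MIR181A1, at chr1:198828173-198828282 on the minus strand, and MIR181B1, at chr1:198828002-198828111, lie 61 bases apart within an intron of MIR181A1HG, a long non-coding RNA. MIR181A2, at chr9:127454721-127454830 on the plus strand, and MIR181B2, at chr9:127455989-127456077, lie 1158 bases apart within an intron of MIR181A2HG, also a long non-coding RNA, which runs opposite to an intron of the nuclear receptor gene NR6A1. MIR181C, at chr19:13985513-13985622 on the plus strand, and MIR181D, at chr19:13985689-13985825, lie 66 bases apart within an annotated intron of NANOS3. miR-181a-3p is thus read from the chromosome 1 hairpin, miR-181a-2-3p from the chromosome 9 hairpin, and miR-181c-3p from the chromosome 19 hairpin. miR-181a-5p cannot be assigned to chromosome 1 or 9: its 2 entries differed by at most 2 counts in any library. The 2 entries of miR-181b-5p differed more, with 2616 counts under one hairpin and 2794 under the other in 0 h replicate 1, although the mature sequence is the same.

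Libraries held 2335185 to 5971197 counts on mature miRNAs, and the 96 h libraries were the deepest. miR-21-5p took between 52.4% and 65.5% of them. Levels are therefore given as CPM after TMM normalization, a scaling that lines up most miRNAs between libraries, with factors from 0.738 to 1.36. Each read covers a whole mature miRNA, so no correction for length was needed, but adapters are joined to different sequences with unequal efficiency and a level is not a number of molecules. miRNAs that mark blood cells and fibroblasts were scarce. Of 5 blood cell miRNAs, miR-223-3p and miR-150-5p were at 0 in every library and all 5 summed to 1.13 to 5.49 CPM, none of them passing the filter on low counts. Of 5 fibroblast miRNAs, miR-214-3p was at 0 in every library and the sum ran from 1.19 to 2.56 CPM at 0 h and from 9.22 to 10.9 CPM at 96 h, and miR-145-5p (1 and 0 reads before treatment, 29 and 25 reads at 96 h) was the only one to pass the filter. The part of this difference in the miR-181 results was not tested. The endothelial miR-126-3p was not scarce, at 382 to 483 CPM, and its part in the miR-181 results was not tested. Among 6 epithelial miRNAs, miR-31-5p made up most of a sum of 4511 to 10113 CPM, while miR-141-3p, a defining epithelial miRNA, had between 5 and 13 counts.

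miR-181a-2-3p, the opposite-arm strand of the chromosome 9 hairpin, rose at 24 h and again stood higher at 96 h, to 5.01 times its level at 0 h. No other member passed both thresholds of the test, an adjusted p under 0.05 and a log2-fold change above 1 in size. Its chromosome 1 counterpart, miR-181a-3p, started from nearly the same level and was 1.92 times as high at 96 h, below the fold threshold. The abundant guide miR-181a-5p, shared by both hairpins, was 1.95 times as high at 96 h, also below it. In bulk RNA, more of a miRNA in each cell and more cells that hold it cannot be told apart. Within the libraries, the balance between the 2 opposite-arm strands moved toward miR-181a-2-3p.

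The levels of miR-181a-2-3p at 0 h were 117.2 CPM and 116.7 CPM, from 320 and 391 counts. At 24 h they were 306 CPM and 318 CPM, and at 96 h 556 CPM and 616 CPM, from 2451 and 2271 counts. The libraries of the 3 time points did not overlap, and each later pair lay above the earlier one. The log2-fold change was 1.41 (SE 0.14) at 24 h against 0 h, with an adjusted p of 0.000227 by edgeR's quasi-likelihood F-test with Benjamini-Hochberg adjustment over 491 miRNAs. At 96 h against 0 h it was 2.32 (SE 0.15, adjusted p = 4.89e-06 by edgeR), and at 96 h against 24 h 0.91 (SE 0.14, adjusted p = 0.00354 by edgeR), which passed the p but not the fold threshold. In rank among all listed mature miRNAs, it moved from 138 in both 0 h libraries to 97 and 96 at 24 h and to 77 and 72 at 96 h.

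miR-181a-3p was at 105 CPM and 110 CPM at 0 h, at 164 CPM and 179 CPM at 24 h, and at 211 CPM and 203 CPM at 96 h. Its time points did not overlap either, but its levels were closer together. The log2-fold change was 0.67 (SE 0.15, adjusted p = 0.0301 by edgeR) at 24 h against 0 h and 0.94 (SE 0.15, adjusted p = 0.000984 by edgeR) at 96 h against 0 h, and neither passed the fold threshold. From 24 h to 96 h it was 0.27 (SE 0.15, adjusted p = 0.261 by edgeR). miR-181c-3p, the opposite-arm strand of the chromosome 19 hairpin MIR181C, was the least abundant member, with 20.1 CPM and 18.5 CPM at 0 h, 26.4 CPM and 29.1 CPM at 24 h, and 35.4 CPM and 32.5 CPM at 96 h. Its time points were also separate, with a log2-fold change of 0.82 (SE 0.21, adjusted p = 0.0116 by edgeR) at 96 h against 0 h, below the fold threshold. With TMM, the 3 opposite-arm strands thus each stepped up without overlap, with the chromosome 9 strand by the most. The first step of miR-181c-3p, to 24 h, had an adjusted p of 0.152 and its second, to 96 h, 0.377 (both by edgeR). Of all tested miRNAs, 29.3% rose without overlap over the first step and 30.3% over the second. Scaled by total counts, miR-181a-3p instead fell over the second step, from 174 and 182 CPM to 155 and 160 CPM. miR-181c-3p likewise fell from 27.9 and 29.6 CPM to 26.1 and 25.8 CPM, while miR-181a-2-3p still rose.

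**Figure D1:**
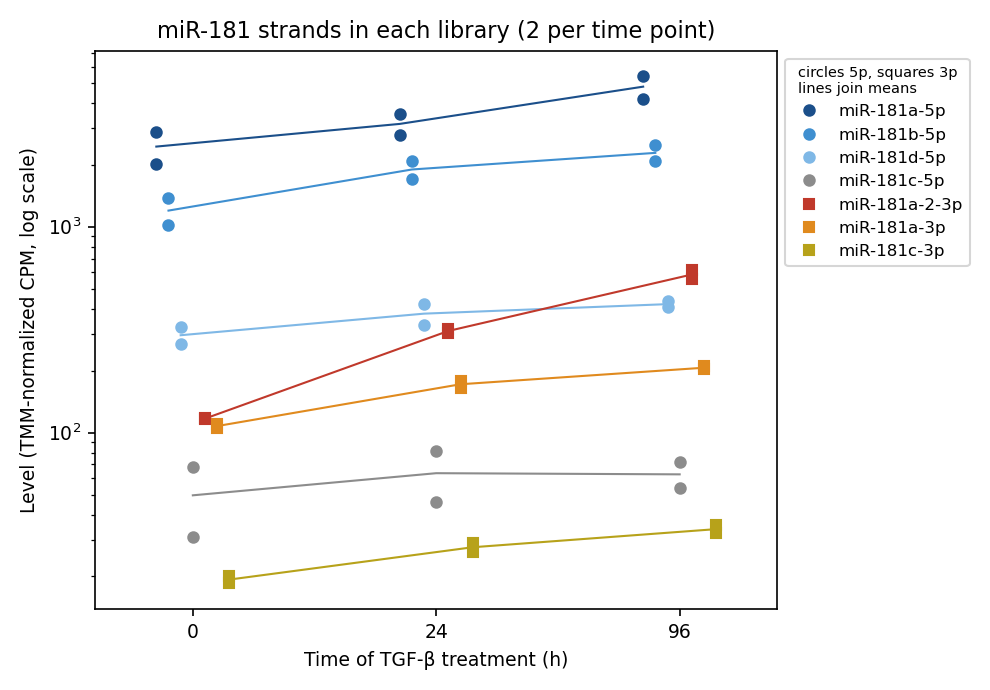
Level of each miR-181 strand in TMM-normalized CPM on a log axis against the time of TGF-β treatment in h, with 1 point for each of 2 libraries and lines joining the means. miR-181a-2-3p (red squares) starts beside miR-181a-3p at 0 h and lies above miR-181d-5p at 96 h, and at 0 h and 24 h the 2 libraries of a time point lie farther apart for the guides than for the opposite-arm strands.

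The 2 most abundant members were guides, and the guides were less separated between time points than the opposite-arm strands. miR-181a-5p, the leading member, was at 2013 CPM and 2888 CPM at 0 h, 3529 CPM and 2786 CPM at 24 h, and 4191 CPM and 5389 CPM at 96 h. The 0 h and 24 h libraries overlapped, while both 96 h libraries lay above all others. The log2-fold change was 0.37 (SE 0.20, adjusted p = 0.264 by edgeR) at 24 h and 0.97 (SE 0.21, adjusted p = 0.00452 by edgeR) at 96 h, both against 0 h. The latter is just under the fold threshold, with a 95% interval from 0.51 to 1.43. miR-181b-5p, the second guide by level, was at 1024 CPM and 1372 CPM at 0 h, 2096 CPM and 1698 CPM at 24 h, and 2085 CPM and 2483 CPM at 96 h. Its 0 h libraries lay below all later ones, the 24 h and 96 h libraries overlapped, and its log2-fold change at 96 h against 0 h was 0.93 (SE 0.18, adjusted p = 0.00275 by edgeR).

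miR-181d-5p was at 268 CPM and 326 CPM at 0 h, 423 CPM and 334 CPM at 24 h, and 406 CPM and 435 CPM at 96 h. The 0 h libraries lay just below the others, and the log2-fold change at 96 h against 0 h was 0.50 (SE 0.17, adjusted p = 0.0345 by edgeR). miR-181c-5p, the rarest guide, had 31.1 CPM and 68.0 CPM at 0 h, 81.1 CPM and 45.9 CPM at 24 h, and 53.8 CPM and 71.6 CPM at 96 h. All its time points overlapped, and its log2-fold change at 96 h against 0 h was 0.32 (SE 0.36, adjusted p = 0.484 by edgeR), with a 95% interval from -0.48 to 1.12 that leaves room for no change and for a change past the fold threshold. Among the guides, then, 3 of 4 were higher at 96 h than at 0 h on the p threshold, against 22.8% of all tested miRNAs. None passed the fold threshold.

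Over the family, 1 of 7 members was called at 24 h against 0 h, where 3.46% of all 491 tested miRNAs were called and 1.22% were called higher. In the comparison of 96 h with 0 h 1 of 7 was called, where 25.9% of all tested miRNAs were called and 12.6% were called higher. Between 24 h and 96 h 0 of 7 were called by edgeR, against 5.91% of all tested (3.67% higher). An unadjusted p under 0.05 was found for 2 of 7, against 152 of all 491. DESeq2 and limma also called 0 of 7 there. On the p threshold alone, 2 of 7 members were higher at 24 h than at 0 h (3.46% of all tested), 6 of 7 at 96 h than at 0 h (22.8% of all tested), and 1 of 7 at 96 h than at 24 h (8.96% of all tested). The members' median log2-fold change at 96 h was 0.93, compared with -0.10 over all tested miRNAs. Libraries did not overlap, and were higher at the later time, for 5 of 7 members at 24 h against 0 h (29.3% of all tested), for 6 of 7 at 96 h against 0 h (33% of all tested), and for 4 of 7 at 96 h against 24 h (30.3% of all tested).

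These directions depend in part on the scaling. When libraries were scaled by total counts instead, the median of all tested miRNAs at 96 h against 0 h moved from -0.10 to -0.83, and the split of calls moved from 62 higher and 65 lower to 23 higher and 192 lower. The log2-fold change of miR-181a-2-3p was then 1.60 (adjusted p = 0.000135 by edgeR) and it was still called, at 24 h as well, with 1.12 (adjusted p = 0.00576 by edgeR). The other members at 96 h against 0 h then ranged from -0.43 for miR-181c-5p to 0.23 for miR-181a-5p, with the sign turned for miR-181c-5p and miR-181d-5p and no adjusted p under 0.05. Relative to the median of all tested miRNAs, the 7 members lay between 0.42 and 2.42 above it with TMM and between 0.40 and 2.43 above it with total counts.

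**Figure D2:**
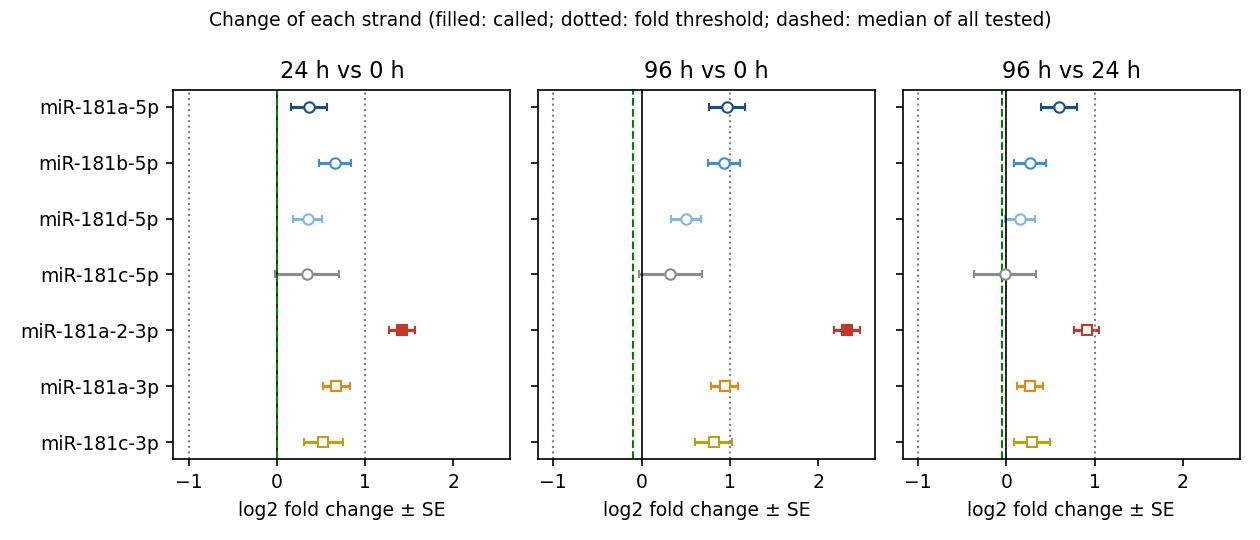
Log2-fold change with its SE for each miR-181 strand in the 3 comparisons of time points, filled where called, with the fold threshold as dotted lines and the median of all tested miRNAs as a dashed line. miR-181a-2-3p is filled at 24 h and 96 h against 0 h, at 1.41 and 2.32, and the other members lie between the median and the fold threshold in both.

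In the order of levels, miR-181a-5p came first, miR-181b-5p second, and miR-181c-3p last at every time point, and miR-181c-5p was the last but one. The 3 middle ranks included a change. At 0 h and 24 h miR-181d-5p lay above miR-181a-2-3p, with 268 to 326 CPM against 116.7 to 117.2 CPM at 0 h and 334 to 423 CPM against 306 to 318 CPM at 24 h. At 96 h miR-181a-2-3p lay above miR-181d-5p, with 556 to 616 CPM against 406 to 435 CPM. No neighbours in this order overlapped in their 2 libraries at any time point. By the means of a time point, the closest were miR-181a-2-3p and miR-181a-3p at 0 h. Their counts were 320 against 286 in replicate 1 and 391 against 370 in replicate 2. In 24 h replicate 2 alone, miR-181d-5p and miR-181a-2-3p were also close, with 1091 against 1038 counts.

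Ratios between strands of the same library do not depend on the scaling between libraries. miR-181a-2-3p made up 52.8% of the reads of both opposite-arm strands of miR-181a in 0 h replicate 1 (95% Wilson interval 48.8% to 56.7%) and 51.4% in replicate 2 (47.8% to 54.9%). At 24 h the shares were 65.0% (62.4% to 67.6%) and 64.0% (61.6% to 66.3%), and at 96 h 72.5% (71.0% to 74.0%) and 75.2% (73.7% to 76.8%). The chromosome 9 strand thus went from about equal with its chromosome 1 counterpart to a clear majority, and the libraries of the 3 time points did not overlap. The ratios of the locus-specific strands of let-7f, miR-16, and miR-30c, compared below, also rose at each step without overlap. How many of all strand pairs did so was not counted. Reads carried no molecular identifiers, so these intervals describe the error of counting reads, not of sampling molecules.

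As a ratio, miR-181a-2-3p to miR-181a-3p was 1.09 ± 0.0439 (SD, n = 2) at 0 h, 1.82 ± 0.0604 (SD, n = 2) at 24 h, and 2.84 ± 0.282 (SD, n = 2) at 96 h. The change of the log2 ratio was tested by edgeR's quasi-likelihood F-test on the paired counts of 240 strand pairs, with a term for each library. At 96 h against 0 h it was 1.38 (SE 0.27, 95% interval 0.77 to 1.995, adjusted p = 0.0445 by edgeR). At 24 h against 0 h it was 0.74 (SE 0.28, adjusted p = 0.579 by edgeR) and at 96 h against 24 h 0.64 (adjusted p = 0.495 by edgeR), neither past the thresholds. The call at 96 h sits close to the threshold: the change ranged from 1.28 to 1.48 when each library was left out in turn, and the adjusted p rose to 0.391 without 96 h replicate 1, to 0.323 without 96 h replicate 2, and to 0.0683 and 0.0691 without 24 h replicate 1 or 2. With only the 0 h and 96 h libraries in the fit it was 0.068.

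The same shift was seen against the guide. miR-181a-5p outnumbered miR-181a-2-3p by 17.2 and 24.8 to 1 at 0 h, 11.5 and 8.78 to 1 at 24 h, and 7.54 and 8.75 to 1 at 96 h. All later libraries lay below those of 0 h, while 24 h replicate 2 and 96 h replicate 2 were nearly equal. The log2 ratio changed by -1.35 (SE 0.28, 95% interval -1.97 to -0.72, adjusted p = 0.0445 by edgeR) at 96 h against 0 h, and by -1.04 (SE 0.28, adjusted p = 0.348 by edgeR) at 24 h against 0 h. The call at 96 h was lost without either 24 h library (adjusted p = 0.0761 and 0.0766) or either 96 h library (adjusted p = 0.391 and 0.323), and without 0 h replicate 1 the change at 24 h was called, at -1.30 (adjusted p = 0.00484). Since the guide is shared by both miR-181a hairpins, this ratio is not that of 1 hairpin.

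Against its chromosome 1 partner no shift of the guide was called. miR-181a-5p outnumbered miR-181a-3p by 22.7 ± 4.91 to 1 (SD, n = 2) at 0 h, 18.5 ± 4.16 to 1 (SD, n = 2) at 24 h, and 23.3 ± 4.73 to 1 (SD, n = 2) at 96 h, with overlap between all time points. The change at 96 h against 0 h was 0.035 (SE 0.29, adjusted p = 0.985 by edgeR), with a 95% interval from -0.62 to 0.69. miR-181c-5p outnumbered miR-181c-3p by 1.55 and 3.68 to 1 at 0 h, 3.07 and 1.58 to 1 at 24 h, and 1.52 and 2.20 to 1 at 96 h. The spread between libraries of a time point was as wide as that between time points, and the change at 96 h against 0 h was -0.42 (adjusted p = 0.705 by edgeR, 95% interval -1.56 to 0.72). This hairpin was the one in which guide and opposite strand came closest in number.

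**Figure D3:**
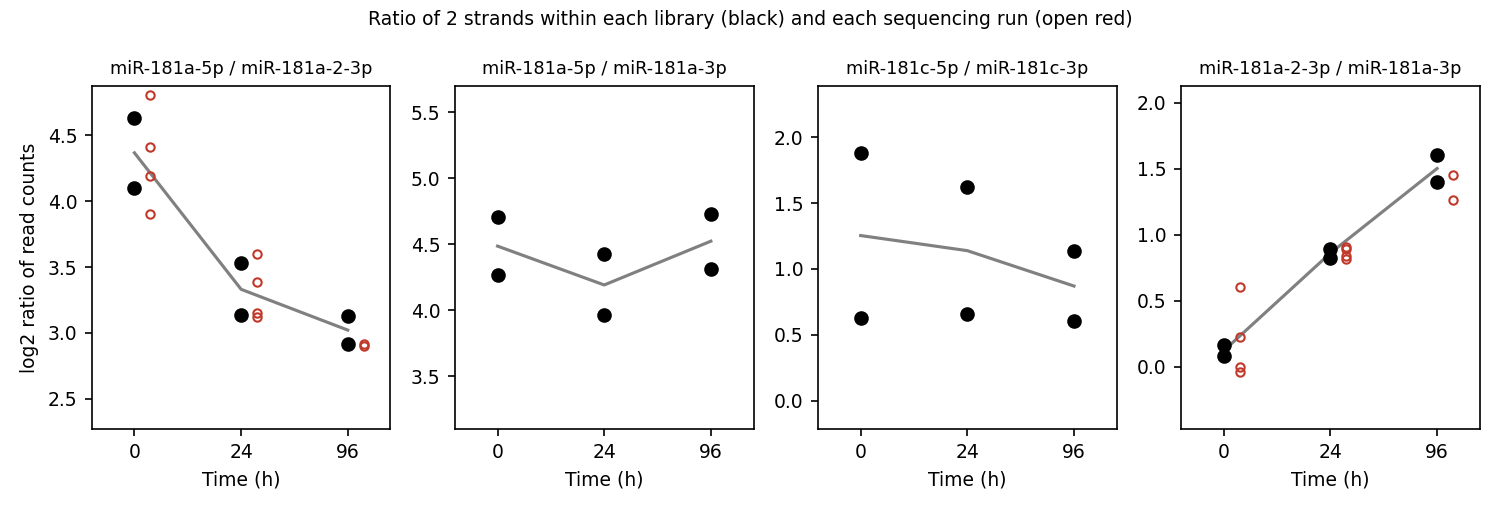
Log2 ratio of the read counts of 2 miR-181 strands in each library (black, lines join the means) and, for 2 of the ratios, in each sequencing run (open red), against the time of TGF-β treatment in h. miR-181a-2-3p gains on both miR-181a-5p and miR-181a-3p from 0 h to 96 h, while the libraries of all time points overlap for the ratios of miR-181a-5p to miR-181a-3p and of miR-181c-5p to miR-181c-3p.

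Among all 240 strand pairs, 5 were called at 96 h against 0 h, which is 2.08% of them, and 0% were called at 24 h against 0 h or at 96 h against 24 h by edgeR, with 16 and 22 pairs at an unadjusted p under 0.05. limma on the log2 ratios called 3 pairs at 96 h against 0 h and 0 in the other comparisons with a pseudocount of 0.5, whereas with a pseudocount of 2 it called 5 pairs for 96 h, 1 for 24 h (both relative to 0 h), and 0 between 24 h and 96 h. The edgeR count of 5 rose to 26 without 0 h replicate 1 and fell to 0 without either 24 h or either 96 h library. Of the 5, 2 were the miR-181 pairs above, and the others were the strands of miR-27b, of miR-7-5p with miR-7-1-3p, and of miR-92a-3p with miR-92a-1-5p. Since the 2 miR-181 pairs share miR-181a-2-3p, they are not independent of each other. The median change over all pairs was 0.29, toward the first-named strand, and miR-181a-5p to miR-181a-2-3p ranked 15 from the lowest. The miR-181 pairs thus lay inside the distribution of all pairs.

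**Figure D4:**
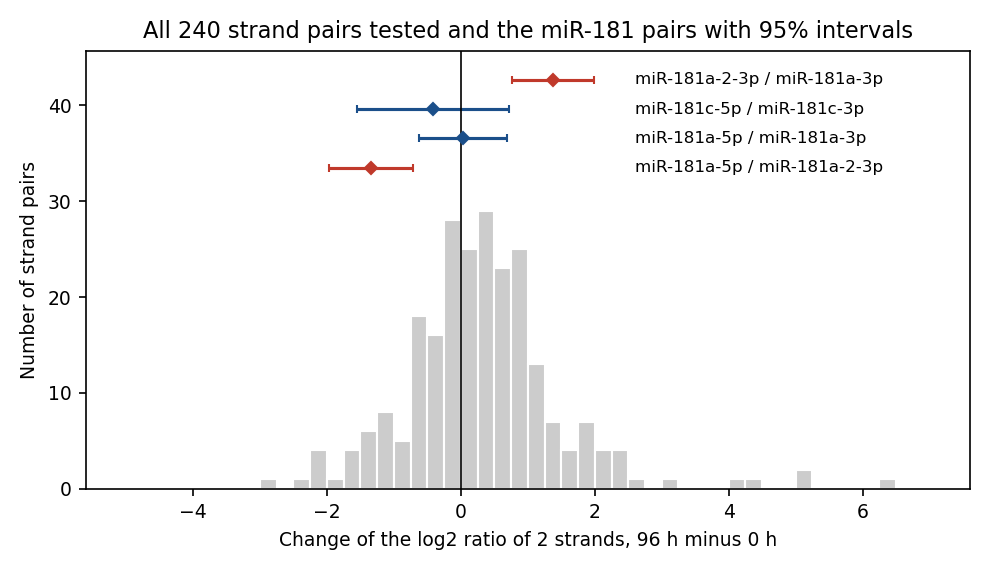
Histogram of the change of the log2 ratio of 2 strands between 0 h and 96 h over all 240 pairs tested, with 4 miR-181 pairs above it as diamonds with 95% intervals (red where called). The intervals of miR-181a-5p to miR-181a-2-3p and of miR-181a-2-3p to miR-181a-3p exclude 0, and both changes lie within the range of the other pairs.

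For comparison with miR-181a, a list was chosen of other miRNAs with several hairpins and locus-specific opposite-arm strands. With at least 10 counts of the rarer strand over all libraries, 8 of them could be tested: let-7a, let-7f, miR-16, miR-24, miR-26a, miR-29b, miR-30c, and miR-125b. miR-181b was not on the list, although miR-181b-3p had 147 counts over all libraries and miR-181b-2-3p had 34. Of these 8 pairs, 0 were called by edgeR at 96 h against 0 h, with changes of the log2 ratio from -1.36 for miR-29b to 1.88 for miR-16 and adjusted p from 0.128 to 0.939. The largest, that of miR-16-2-3p to miR-16-1-3p, rested on 5 to 12 counts of the rarer strand in each library. The SE of the 8 changes ran from 0.33 for miR-24 to 1.23 for miR-26a, whose rarer strand had 0 to 4 counts in each library, against 0.27 for miR-181a, so a change of the size seen for miR-181a could have been missed in the thinly counted pairs. The miR-181a pair was the only one of 9 called, though 1 of the others changed by more. Before adjustment, the 95% intervals of miR-16 (0.63 to 3.13), miR-30c (0.18 to 1.70), and miR-125b (-1.49 to -0.012) also excluded 0. Those of the remaining pairs did not. The differences between pairs were not tested.

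Among the guides themselves, shifts of the shares were at most a few percentage points and no pair was called. miR-181a-5p made up 61.2% ± 1.20 (SD, n = 2) of the guide reads at 0 h, 57.4% ± 0.209 at 24 h, and 63.3% ± 1.48 at 96 h, and miR-181b-5p 30.1% ± 0.848, 34.5% ± 0.504, and 30.3% ± 0.929. miR-181d-5p took 7.52% ± 0.728 at 0 h and 5.61% ± 0.594 at 96 h, and miR-181c-5p from 0.826% to 1.20% as a mean of each time point. Of the 6 pairs of guides, 0 were called by edgeR in any comparison, with changes from -0.10 to 0.57 and adjusted p from 0.354 to 0.983 at 96 h against 0 h. The 95% intervals of these pairs reached down to -0.92 and up to 1.24, so for some pairs a shift past the fold threshold is within the error.

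Guides and opposite-arm strands differed in how their replicate libraries spread. At 0 h all 4 guides were higher in replicate 2 than in replicate 1, by 1.22 times for miR-181d-5p to 2.18 times for miR-181c-5p, whereas the 3 opposite-arm strands had ratios from 0.918 to 1.054. At 24 h all 4 guides were lower in replicate 2, with ratios from 0.566 to 0.810, against 1.04 to 1.10 for the opposite-arm strands. At 96 h the guides were higher in replicate 2, from 1.07 to 1.33 times, against 0.920 to 1.11. At 96 h the 2 ranges overlap, and the difference between guides and opposite-arm strands was not tested. The 3 opposite-arm strands together made up 5.89% ± 1.24 (SD, n = 2) of the family's reads at 0 h, 8.63% ± 1.59 at 24 h, and 9.93% ± 1.004 at 96 h, and the replicate spread of the guides enters these shares. The whole family took between 0.418% and 0.730% of the mature miRNA reads of a library.

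The ratio of the 2 opposite-arm strands could be followed in single sequencing runs in 5 of the 6 libraries. The labels do not name runs, and the 2 dated samples of a library were taken as such. The earlier date was common to all libraries. The later date was the same for both libraries at 24 h, a different date at 96 h, and either of these at 0 h. It is thus partly confounded with time, and its effect was not tested. The log2 ratio of miR-181a-2-3p to miR-181a-3p was 0.61 and -0.0066 in the runs of 0 h replicate 1, 0.22 and -0.042 in those of 0 h replicate 2, between 0.82 and 0.90 in the 4 runs at 24 h, and 1.26 and 1.46 in the runs of 96 h replicate 1. All 4 runs at 0 h lay below all at 24 h, and those below both at 96 h. The highest run at 0 h held 102 and 67 reads of the 2 strands, and the largest difference between runs of a library, 0.61, was found there.

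The table also lists 3 further strands of the family, which were scarce. miR-181b-3p, from the chromosome 1 cluster, was read 16 and 7 times at 0 h, 26 and 29 times at 24 h, and 41 and 28 times at 96 h. miR-181b-2-3p, from the chromosome 9 cluster, had 1 and 4, 7 and 8, and 8 and 6 counts. miR-181d-3p had 2 counts in 24 h replicate 2, 1 in 96 h replicate 2, and 0 in the other libraries, which at 3 counts allows up to 1.12 CPM in any of them. The ratio of miR-181b-2-3p to miR-181b-3p was not tested.

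The miRNAs whose log2 levels followed miR-181a-2-3p most closely over the 6 libraries, out of 315 with a mean of at least 10 CPM outside the family, were miR-143-3p, miR-365a-3p, miR-365b-3p, miR-485-3p, and miR-889-3p, with Pearson's r from 0.981 to 0.997. miR-365a-3p and miR-365b-3p have the same mature sequence and thus share reads. Those closest to miR-181a-5p were miR-410-3p, miR-103a-3p, miR-15b-5p, miR-376c-3p, and miR-92a-3p, with r from 0.951 to 0.981, and no miRNA was on both lists. The points share 3 time points and 6 libraries, so these values describe likeness only. Within the family, miR-181a-2-3p had an r of 0.99 with miR-181a-3p and 0.98 with miR-181c-3p, against 0.92 with miR-181b-5p, 0.87 with miR-181a-5p, 0.84 with miR-181d-5p, and 0.40 with miR-181c-5p.

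For context, of 18 miRNAs known from EMT, 16 could be tested at 96 h against 0 h. 2 were called higher, miR-145-5p and miR-200b-3p, where 12.6% of all tested miRNAs were called higher. By edgeR 0 were called lower, against 65 of all 491 tested. An unadjusted p under 0.05 was found for 12, against 274 of all 491. On the p threshold alone 7 were higher and 4 lower, against 112 and 104 of all 491. miR-200b-3p, a repressor of the EMT factors ZEB1 and ZEB2, had a log2-fold change of 1.60 (adjusted p = 0.000257 by edgeR). In the same family, miR-200a-3p was at 0.81 (adjusted p = 0.00947 by edgeR) and miR-429 at 0.20 (adjusted p = 0.596 by edgeR). miR-200c-3p was at -0.035 (adjusted p = 0.925 by edgeR) and miR-141-3p at -1.14 (adjusted p = 0.141 by edgeR). The changes and calls of these EMT miRNAs are given with TMM only and depend on the scaling. Total counts moved the median of all tested miRNAs at 96 h against 0 h from -0.10 to -0.83.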

How the data were processed

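Sample titles give a time, a number and a date. The 2 samples that share a time and a number were taken here as 2 runs of a library, with 6 libraries in all. The authors sequenced small RNA of A549 cells with Illumina's small RNA kit and counted reads with miRDeep2. They deposited counts, whole reads per mature miRNA and hairpin with both runs summed, and normalized values. The latter are a signal deposited as the sum of both runs, each scaled to 1 common total. Of its columns, 1 is a repeat and was not used, so 96 h replicate 2 has no normalized value here. Runs were separated by solving for whole reads of 2 runs, which held within 0.01 for 99.7% to 100% of entries. The submitters' processing notes name hg19 and FastQC; mapping settings are not given in the sources used here.

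The 7 members, the lists and the tests were chosen with earlier results of these data known. The miRNAs named are the 7 members, 3 further strands, the 5 most alike to the leading guide and opposite-arm strand, called miRNAs of an EMT list, and other miRNAs with locus-specific strands. The pairs called outside the family were named after their values were seen. Replicates of a time point differed by 32.0 to 66.0 in chi-square per degree of freedom, where counting noise alone gives 1, and were kept as separate libraries. The fit used edgeR 4.0.16 in R 4.3.3 (TMM, filterByExpr with a minimum count of 10, 1 model with time over all 6 libraries, quasi-likelihood F-test, Benjamini-Hochberg adjustment). Calls needed an adjusted p under 0.05 and a log2-fold change above 1 in size; the SE is the change divided by the square root of F. Strand pairs (225 hairpin pairs, 9 pairs of locus-specific strands, and 6 pairs of guides) were fitted on paired counts, with at least 10 counts of the rarer strand over all libraries. On simulated data with a log2 change of 2 at 96 h against 0 h, the fit over miRNAs (mean 465 tested) recovered 97.4% and 1.32% of its calls were false, and the fit over strand pairs (mean 199 tested) recovered 57.9% and 4.11% were false. Most changes reported here are smaller than 2, and recovery of smaller changes was not simulated. The simulated pairs shared no strand, unlike some of those fitted. Alternatives used DESeq2 1.42.0 and limma 3.58.1. Positions are those of GENCODE on GRCh37, found by matching the mature sequence to the hairpin.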

Additional observations from a re-analysis of the deposited data

Results flagged for a closer look

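The change of miR-181a-2-3p differed between 24 h and 96 h by a direct test of the time points: the log2-fold change at 96 h against 24 h was 0.91 (SE 0.14, adjusted p = 0.00354 by edgeR's quasi-likelihood F-test), and both libraries at 96 h were higher than both at 24 h. With total counts in place of TMM it was 0.48 (adjusted p = 0.0572), and over all alternatives the adjusted p ran from 3.21e-06 to 0.123. With 2 libraries at each time point, no library could be tested as standing apart from its group.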

How the results depend on the processing

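The call of miR-181a-2-3p held in all 18 alternatives for 24 h against 0 h (log2-fold change 1.12 to 1.48, adjusted p up to 0.0251) and in all 18 for 96 h (1.60 to 2.42, adjusted p up to 0.000308). The number of the 7 members called at 96 h against 0 h was 1 in the reported fit, 3 with DESeq2's size factors and with DESeq2's Wald test, 2 without an expression filter and with only the libraries compared, and 6 without a minimum fold change; miR-181a-5p and miR-181a-3p lay near the fold threshold, at 0.97 and 0.94. Without that minimum it was 2 for 24 h against 0 h and 1 for 96 h against 24 h. With 1 library left out at a time, where the lone library of a time point is assumed to vary like the others, the counts ran from 1 to 2 (24 h against 0 h), 1 to 4 (96 h against 0 h), and 0 to 1 (96 h against 24 h). The highest count, 4, came without 0 h replicate 2.

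Of the 3 pairs of a guide with an opposite-arm strand, 1 was called at 96 h against 0 h in the reported fit and 0 with hairpin pairs only (miR-181a-5p to miR-181a-2-3p, adjusted p = 0.059), with only the libraries compared (0.0761), and with the replicate number as a block (0.115). Leaving out single libraries gave 0 to 1 at 24 h and 0 to 1 at 96 h, both against 0 h. For miR-181a-2-3p to miR-181a-3p at 96 h against 0 h, 7 of 13 alternatives kept the call, and it was lost with the replicate number as a block (adjusted p = 0.115), with only the libraries compared (0.068), and without either 24 h or either 96 h library. The cause was not tested. The 5 pairs called of all 240 became 0 with the block or with only the libraries compared, 1 with hairpin pairs only, and 9 and 10 with at least 5 and 60 counts of the rarer strand. The 8 other pairs within the family were called in 0 of 315 fits under the alternatives. The replicate block left the members called at 1, 1, and 0 in the 3 comparisons. The labels do not say whether same-numbered libraries belong together. Deviations of same-numbered libraries from the means of their time points correlated at -0.30, 0.31, and -0.18. With so few libraries and signs that differ, these values cannot decide whether the numbers pair the libraries.

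Signs turned for members that were not called. For miR-181c-5p at 96 h against 0 h the log2-fold change was -0.43 with total counts and -0.044 with total counts without miR-21-5p, and it ran from -0.080 to 1.014 with single libraries left out, as it did from -0.085 to 1.03 at 24 h against 0 h. At 96 h against 24 h it was 0.049 with DESeq2's size factors, 0.047 with DESeq2's Wald test, 0.024 with limma, 0.015 without a filter, and -0.29 to 0.45 with single libraries left out. miR-181d-5p turned to -0.24 (96 h against 0 h) and -0.29 (96 h against 24 h) with total counts, and to -0.018 in the latter without miR-21-5p. At 96 h against 24 h with total counts, miR-181b-5p was at -0.17, miR-181a-3p at -0.17, and miR-181c-3p at -0.15. The log2 ratio of miR-181c-5p to miR-181c-3p changed by -0.74 to 0.51, -1.01 to 0.24, and -0.75 to 0.21 in the 3 comparisons with single libraries left out, and that of miR-181a-5p to miR-181a-3p at 96 h against 0 h by -0.19 to 0.26. With 2 libraries at each time point, an exact permutation test of a single miRNA cannot go below p = 0.333, and a pair that was not called may still have changed.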
